A study of Homo sapiens with 16 samples.

Results

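Semaphorins, their plexin and neuropilin receptors and the intracellular collapsin response mediator proteins (CRMP) form one guidance system, and 35 of the 20356 genes in the count table belong to it. They were picked by name, as protein-coding genes whose symbol begins with SEMA3, SEMA4, SEMA5, SEMA6, SEMA7 or PLXN, together with NRP1, NRP2, CRMP1 and DPYSL2 to DPYSL5. The set was fixed with earlier results of these data known. The choice gave 19 semaphorins, 9 plexins, 2 neuropilins and 5 CRMP genes.

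Semaphorins are ligands first known for steering growing axons. Class 3 members are secreted and mostly bind a neuropilin, which has no signalling domain of its own and pairs with an A-type plexin, while the other vertebrate classes are held at the membrane and mostly bind plexins directly. Plexins carry a GTPase-activating domain that acts on small G proteins and so on adhesion and the cytoskeleton, and CRMP proteins bind tubulin and relay the class 3 signal inside the cell. In tumors and their vessels the same proteins are studied for cell migration, and neuropilins also serve as co-receptors of vascular endothelial growth factors.

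The libraries were made from PC3 cells, a human line that was established from a bone metastasis of prostate cancer. The 4 groups held 4 libraries each and were DDX4-null xenograft tumors, control xenograft tumors, DDX4-null monolayer cells and control monolayer cells, and the submitters' design text asks what DDX4, a germ cell RNA helicase, does in these cells. The labels name no host animal, no way in which DDX4 was disrupted and no number of clones, and they do not tie single libraries to cultures or tumors. P-values therefore cover the variation among the 4 libraries of a group, and that variation may be technical only.

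Library totals ran from 12204254 to 25443952 counts. DDX4 itself had 0 to 5 counts per library in every group, so its RNA does not check the labels. The epithelial and mesenchymal markers KRT8, KRT18, EPCAM, VIM and CD44 exceeded 1 CPM, counts scaled to a common library size, in all groups, while KLK2, a prostate secretory gene, had 0 counts in all libraries. The 7 fibroblast markers summed to 1670 to 10750 CPM in DDX4-null tumors and 1380 to 1868 CPM in control tumors, against 45.6 to 57.8 CPM in DDX4-null cells and 24.0 to 31.3 CPM in control cells. The 8 nerve and Schwann cell markers summed to 8.10 to 13.0 CPM in DDX4-null tumors, 7.48 to 10.5 CPM in control tumors, 4.999 to 5.76 CPM in DDX4-null cells and 3.02 to 4.83 CPM in control cells. The highest fibroblast sum belonged to DDX4-null tumor 1, and the other DDX4-null tumors lay between 1670 and 1915 CPM. The 5 skeletal muscle markers found summed to 6.09 to 287.5 CPM in DDX4-null tumors and 92.2 to 310.8 CPM in control tumors, and to under 1 CPM in every cell library. The 6 leukocyte markers summed to 10.3 to 44 CPM in DDX4-null tumors, highest again in DDX4-null tumor 1, and 11.0 to 17.3 CPM in control tumors, against 0.765 to 1.04 CPM in DDX4-null cells and 0.841 to 2.34 CPM in control cells. Most of the tumor sum was CSF1R, at 17.9 ± 13.7 CPM in DDX4-null and 7.96 ± 1.37 CPM in control tumors. The general leukocyte marker PTPRC went the other way, at 3.09 ± 0.442 and 4.30 ± 1.33 CPM. CD68, ITGAM, CD14 and TYROBP averaged at most 1.10 CPM in either tumor group. The 5 endothelial markers found summed to 4.30 to 6.68 CPM in DDX4-null tumors and 4.81 to 6.17 CPM in control tumors, and to under 1 CPM in every cell library. In tumors, RNA of the host that was counted on human genes, fewer cells of a type and less RNA per cell cannot be told apart.

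The system changed widely between DDX4-null and control monolayer cells, about as often as other genes did. Of 31 members tested with edgeR's quasi-likelihood test, 12 rose and 11 fell, with the threshold set at an adjusted p of 0.05. That is 74.2% of the members tested, against 67.3% of all 13006 genes tested, of which 35.0% rose and 32.3% fell. The median size of the members' log2 changes was 0.61, against 0.48 for all genes tested. By family, 5 semaphorins rose and 7 fell, 3 plexins rose and 3 fell, 1 neuropilin went in each direction, and 3 CRMP genes rose and 0 fell.

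DDX4-null tumors showed few such differences from control tumors. Of 31 members tested, 1 fell, the receptor PLXNA1, and 0 rose. An unadjusted p under 0.05 was found for 11 members, but the share of all genes at that cut was not counted. The share called was 3.23%, against 2.09% of all 12942 genes tested, of which 0.981% rose and 1.10% fell. Leaving out control tumor 3 gave 0 calls and leaving out DDX4-null tumor 1 gave 2. In all, 26 of 13043 and 289 of 13052 genes were called there. DESeq2 called 5 members, with DPYSL2, DPYSL4 and SEMA4C higher and PLXNA1 and SEMA3F lower, and it called 880 of 12918 genes in all, against 270 of 12942 with edgeR. The members' median log2 change in size was 0.26, against 0.16 for all genes.

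**Figure D1:**
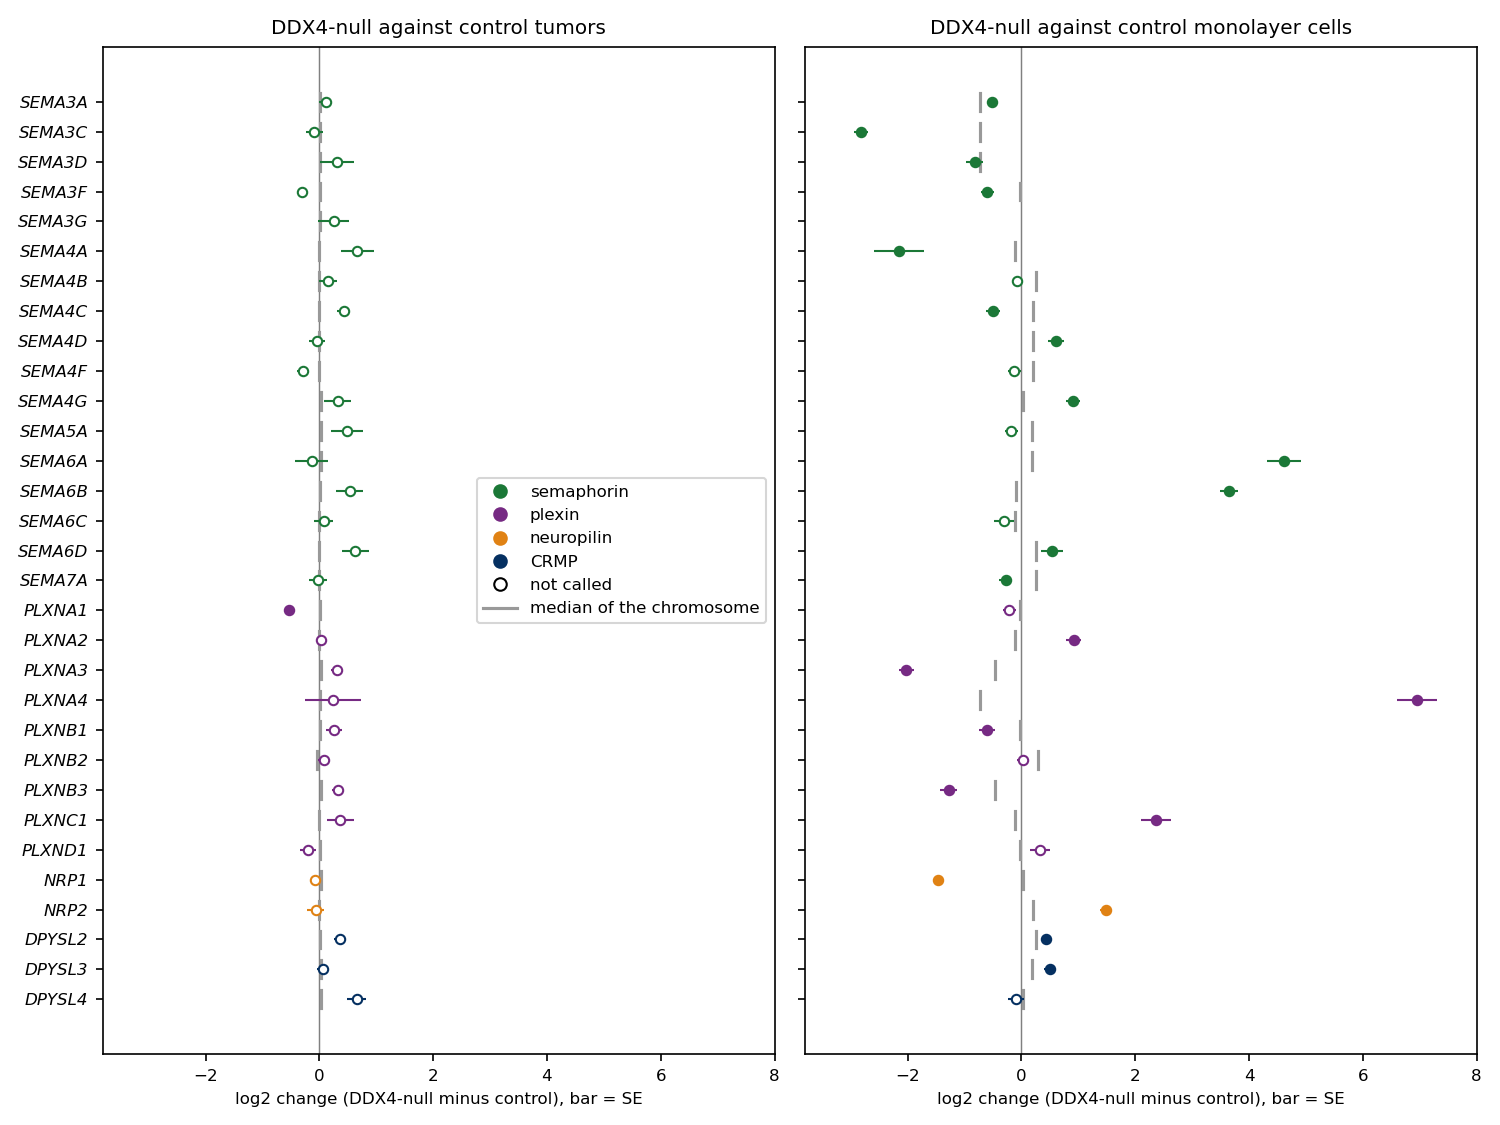
Log2 changes between DDX4-null and control libraries for the members tested in tumors (left) and monolayer cells (right), with SE bars; filled points are called at an adjusted p under 0.05, open points are not, and grey marks show the median change of all tested genes on the same chromosome. The tumor changes lie between -0.54 and 0.67, whereas the monolayer changes run from -2.81 for SEMA3C to 6.96 for PLXNA4; CRMP1 is not drawn because control cells had 0 counts of it.

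CRMP1, a neuronal member of the tubulin-binding CRMP family, separated the groups most. Its level, scaled by edgeR's TMM factors, was 43.6, 40.4, 43.0 and 37.5 CPM in DDX4-null cells and 0 in all 4 control cell libraries. In the tumors it was 0.521, 0.761, 0.460 and 0.501 CPM in DDX4-null libraries and 0.209, 0.0589, 0.111 and 0.101 CPM in control libraries. The groups did not overlap in either setting, but the tumor levels were near those of a few counts. With 3010 counts against 0, the RNA was at least 853-fold higher in DDX4-null cells, taking the floor of 3 counts over the control group. In tumors, 36 counts against 9 gave a ratio of 4.95 with an exact 95% counting interval of 2.34 to 11.7. The tumor comparison fell under the filter on low counts and was not tested there; without the filter its log2 change was 2.21 ± 0.51 (SE; adjusted p = 0.04). DDX4-null tumors held far less CRMP1 RNA than DDX4-null cells, with a log2 change of -6.15 ± 0.17 (adjusted p = 1.89e-11).

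PLXNA4, a receptor that pairs with neuropilins and also binds class 6 semaphorins, had the next largest rise. It measured 9.23, 7.12, 9.96 and 9.02 CPM in DDX4-null cells and 0.0662, 0, 0.168 and 0 CPM in control cells. The tumors were alike between genotypes, with 1.04, 1.03, 0.575 and 0.250 CPM in DDX4-null libraries and 0.209, 0.589, 0.554 and 1.01 CPM in control libraries. The 4 DDX4-null cell libraries thus lay above all others, and the tumor groups overlapped. The ratio of DDX4-null to control cells was 138, from 650 against 4 counts, with a counting interval of 53.7 to 509. PLXNA4 lies on chromosome 7, where the median log2 change of 594 tested genes was -0.73 in the same comparison.

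SEMA3C, a secreted class 3 ligand, moved the other way and was the largest fall among all members tested in monolayer cells. It measured 22.8, 19.2, 27.1 and 28.0 CPM in DDX4-null cells and 164, 156, 179 and 185 CPM in control cells, a log2 change of -2.81 ± 0.12 (adjusted p = 1.63e-13). In DDX4-null tumors it was 34.4, 48.7, 55.5 and 37.4 CPM, and in control tumors 49.9, 44.4, 40.5 and 52.6 CPM (log2 change -0.09 ± 0.15, adjusted p = 0.762). Control cells stood above all 12 other libraries, and DDX4-null cells below all of them. SEMA3C is on chromosome 7 too, and with changes centred on the chromosome's median its monolayer change remained called.

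The start regions of these 3 genes are shown as those of the 2 largest rises and the largest fall between the monolayer groups, and because CG pairs, the sites of DNA methylation, are dense in the start regions of many genes. The sequences are RefSeq's 300-base windows on GRCh38.p14, from 250 bases before to 50 bases after an annotated start, read 5′ to 3′ on the gene's strand, with each CG in capitals. RefSeq gives 4 such windows for CRMP1 and 2 for SEMA3C, and gene counts do not tell which start was used. The CRMP1 window is chr4:5893037-5893336 and the PLXNA4 window chr7:132576421-132576720, and the SEMA3C windows are chr7:80922340-80922639 and chr7:80919002-80919301, all on the minus strand. As a check of orientation, the last 20 bases of each of these 4 windows lie in a GENCODE v29 transcript of the gene. The same held for 42 of the 52 member windows and not for the other 10.
CRMP1 window 1: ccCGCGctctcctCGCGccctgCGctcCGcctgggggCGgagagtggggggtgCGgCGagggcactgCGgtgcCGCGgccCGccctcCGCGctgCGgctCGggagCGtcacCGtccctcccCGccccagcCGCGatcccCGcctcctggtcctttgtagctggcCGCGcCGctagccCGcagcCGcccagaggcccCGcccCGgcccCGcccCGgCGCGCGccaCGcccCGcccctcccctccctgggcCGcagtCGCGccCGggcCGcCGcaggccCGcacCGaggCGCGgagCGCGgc
PLXNA4 window 1: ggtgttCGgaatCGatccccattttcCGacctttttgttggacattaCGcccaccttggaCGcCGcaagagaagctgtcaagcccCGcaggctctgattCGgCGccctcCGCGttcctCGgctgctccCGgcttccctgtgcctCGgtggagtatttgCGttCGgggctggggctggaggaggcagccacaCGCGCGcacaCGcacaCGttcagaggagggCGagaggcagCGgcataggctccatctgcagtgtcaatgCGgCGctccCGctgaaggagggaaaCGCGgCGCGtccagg
SEMA3C window 1: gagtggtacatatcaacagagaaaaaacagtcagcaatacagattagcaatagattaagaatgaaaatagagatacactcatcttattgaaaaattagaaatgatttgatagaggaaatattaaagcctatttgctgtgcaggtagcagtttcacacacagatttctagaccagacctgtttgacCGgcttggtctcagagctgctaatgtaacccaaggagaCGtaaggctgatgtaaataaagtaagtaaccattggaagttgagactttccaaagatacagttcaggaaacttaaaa
SEMA3C window 2: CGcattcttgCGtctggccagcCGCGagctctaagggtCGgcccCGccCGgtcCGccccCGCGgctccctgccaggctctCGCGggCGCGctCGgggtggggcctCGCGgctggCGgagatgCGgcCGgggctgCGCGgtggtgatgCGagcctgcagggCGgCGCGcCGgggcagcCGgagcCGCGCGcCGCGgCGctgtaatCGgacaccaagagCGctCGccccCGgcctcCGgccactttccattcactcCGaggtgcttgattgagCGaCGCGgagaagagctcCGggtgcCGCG
The CRMP1 window holds 49 CG pairs, and 1.6% of all 35116 RefSeq windows hold as many, where the median window has 14. The other CRMP1 windows hold 21, 32 and 22 pairs. The PLXNA4 window holds 30, as many as 22.4% of windows do. The first SEMA3C window holds 2 and the second 46, which 89% and 2.89% of windows reach. CG pairs were counted on one strand, since a CG reads as CG on the other strand as well, and no methylation was measured here.

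Among the secreted ligands, SEMA3A, the classical axon-repelling class 3 member, was lower in DDX4-null cells, at 99.4, 118, 128 and 131 CPM, against 174, 160, 168 and 176 CPM in control cells. The groups did not overlap, and the log2 change was -0.51 ± 0.10 (adjusted p = 0.000164). Relative to its chromosome, again chromosome 7, the change turned to 0.22 (adjusted p = 0.0633). In tumors SEMA3A was lower still in both genotypes, at 40.5, 57.0, 57.6 and 51.0 CPM in DDX4-null libraries and 47.3, 45.1, 45.2 and 53.3 CPM in control libraries, which overlap. The log2 change of control tumors against control cells was -1.82 ± 0.09, and that of DDX4-null tumors against DDX4-null cells -1.19 ± 0.13.

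SEMA3D, another chromosome 7 ligand, averaged 13.3 ± 3.16 CPM in DDX4-null cells and 23.6 ± 1.65 CPM in control cells (SD, n = 4 each; log2 change -0.82 ± 0.14), and lost its call when changes were centred by chromosome (-0.10, adjusted p = 0.567). Its spread was widest in DDX4-null tumors, at 17.5, 37.3, 48.9 and 16.03 CPM, and the library rich in fibroblast markers, DDX4-null tumor 1, was not the highest. SEMA3F, a ligand that prefers NRP2, averaged 47.1 ± 7.18 CPM in DDX4-null cells and 71.2 ± 8.85 CPM in control cells (log2 change -0.60 ± 0.12). SEMA3F was also lower in DDX4-null than in control tumors, at 68.2 ± 4.11 against 84.2 ± 4.73 CPM without overlap, but did not pass (adjusted p = 0.078). SEMA3E, which binds PLXND1 without a neuropilin, had 6 counts in DDX4-null cells and 45 in control cells, 8.82-fold lower by counts (interval 3.75 to 25.3), and was below the filter. SEMA3G, a ligand of vascular endothelium, had 61 counts in DDX4-null tumors against 10 in DDX4-null cells, and 62 in control tumors against 2 in control cells.

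Per length, the part of SEMA3C among the class 3 ligands separated the monolayer groups and not the tumor groups. SEMA3C made up 13.8% ± 1.73 of the summed class 3 level per kilobase in DDX4-null cells and 43.2% ± 1.95 in control cells (SD, n = 4). In tumors its share was 22.8% ± 2.47 in DDX4-null and 22.4% ± 1.80 in control libraries. These shares are descriptions without a test. The plot of family makeup shows them beside those of plexins and CRMP genes.

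**Figure D2:**
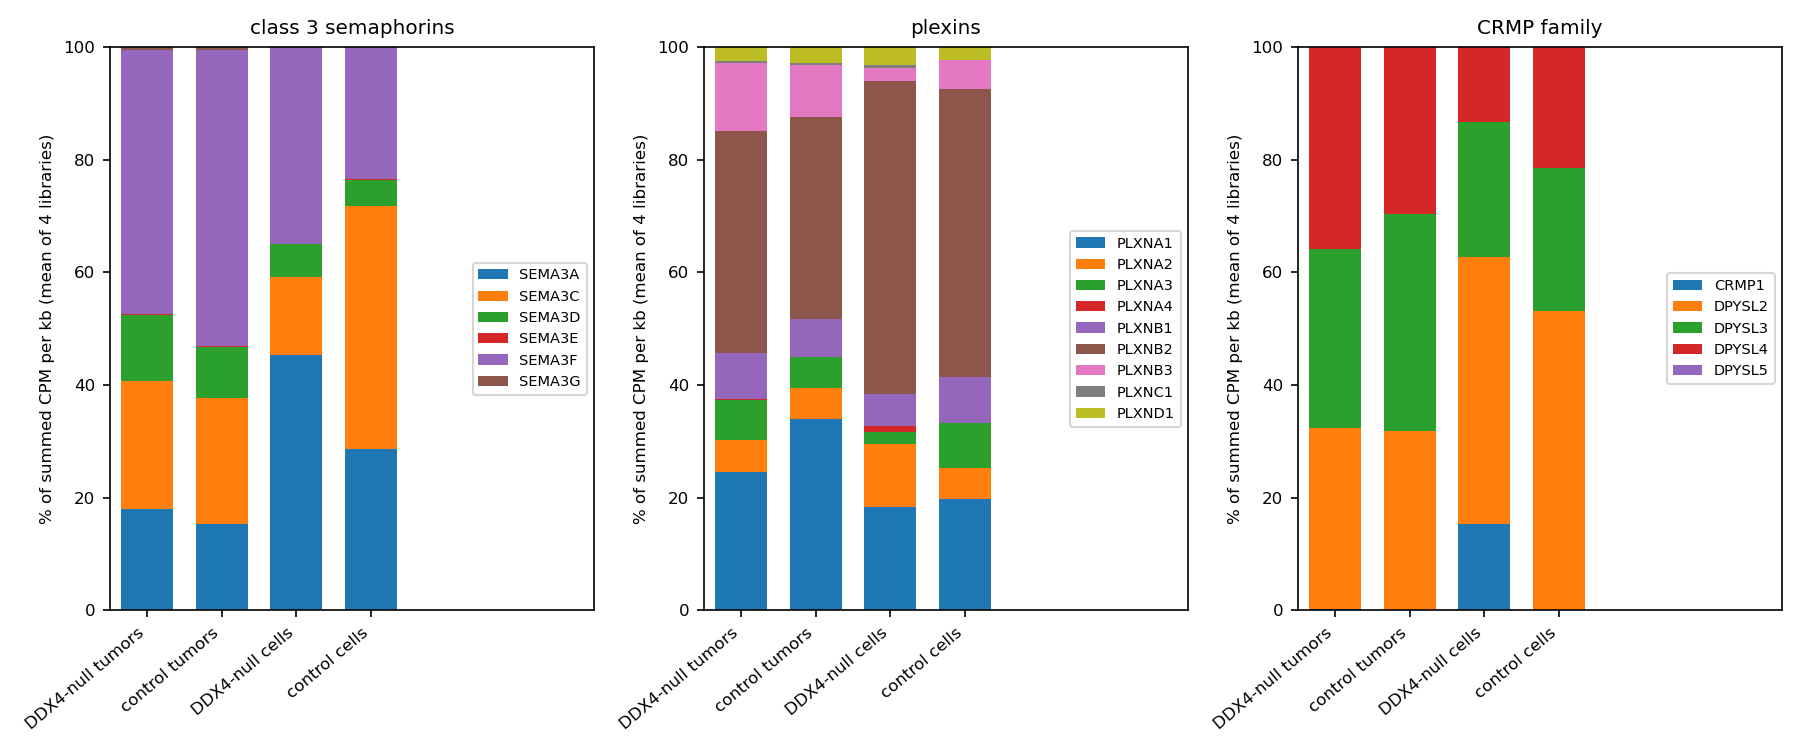
Mean share of each member, in % of the family's summed CPM per kilobase of exon, in the 4 groups of 4 libraries, for class 3 semaphorins, plexins and the CRMP family. SEMA3C takes 13.8% in DDX4-null cells and 43.2% in control cells, PLXNB2 is the largest plexin part in every group, and CRMP1 appears as a visible part in DDX4-null cells alone, at 15.4%.

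The membrane-bound ligands of class 6 held the strongest rises among semaphorins. SEMA6B, a transmembrane ligand of A-type plexins, measured 37.8, 28.9, 34.5 and 29.8 CPM in DDX4-null cells and 2.71, 3.41, 2.46 and 1.94 CPM in control cells (log2 change 3.64 ± 0.16, adjusted p = 2.19e-13). DDX4-null tumors had 2.08, 2.28, 2.87 and 1.94 CPM and control tumors 1.74, 2.00, 1.29 and 1.36 CPM. DDX4-null cells alone stood apart, and the tumor groups overlapped (log2 change 0.54 ± 0.24, adjusted p = 0.223). SEMA6A, a ligand of PLXNA2 and PLXNA4, was likewise highest in DDX4-null cells, with 3.71 ± 0.306 CPM in DDX4-null cells and 0.140 ± 0.0648 CPM in control cells (n = 4 each). Its ratio was 25.6, from 271 against 9 counts, with a counting interval of 13.3 to 56.6.

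SEMA6D, a ligand of PLXNA1, was a tumor-side gene. It measured 15.0, 11.6, 7.53 and 10.6 CPM in DDX4-null tumors and 10.5, 5.94, 6.09 and 6.44 CPM in control tumors, against 2.29, 2.12, 2.69 and 2.66 CPM in DDX4-null cells and 1.66, 1.85, 1.46 and 1.81 CPM in control cells. Every tumor library exceeded every cell library, while the tumor groups overlapped. The rise over cells was 2.21 ± 0.22 on the log2 scale in DDX4-null and 2.09 ± 0.22 in control libraries. The monolayer rise of 0.54 ± 0.19 (adjusted p = 0.0189) lost its call without control cell library 3 or DDX4-null cell library 3 or 4, and also when centred by chromosome (0.27, adjusted p = 0.223). SEMA6C did not pass in either genotype comparison (log2 changes -0.30 ± 0.17 in cells and 0.08 ± 0.17 in tumors).

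SEMA5A, a class 5 transmembrane ligand with thrombospondin repeats, was lower in the tumors of both genotypes than in their cells. It measured 14.8, 14.1, 9.60 and 5.63 CPM in DDX4-null tumors and 10.9, 5.47, 7.53 and 7.55 CPM in control tumors, against 39.0, 38.2, 52.1 and 46.7 CPM in DDX4-null cells and 46.7, 51.3, 55.4 and 45.3 CPM in control cells. Tumors and cells did not overlap, and the genotypes overlapped in both settings. The log2 change against cells was -1.99 ± 0.23 in DDX4-null and -2.66 ± 0.15 in control libraries.

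Among class 4 ligands, SEMA4G was higher in DDX4-null cells, at 15.3, 15.1, 14.4 and 14.1 CPM, against 7.02, 9.08, 7.05 and 8.34 CPM in control cells (log2 change 0.90 ± 0.13). Tumor levels were higher and uneven, at 18.7, 40.6, 51.4 and 28.1 CPM in DDX4-null libraries and 24.4, 30.1, 30.4 and 26.4 CPM in control libraries. The tumor groups overlapped, and every tumor library exceeded every cell library. SEMA4G shares 1170 of its 5253 exonic bases with MRPL43, a mitochondrial ribosomal protein gene on the other strand, in GENCODE v29. MRPL43 averaged 41.0 ± 6.16 CPM in DDX4-null cells and 51.2 ± 6.58 CPM in control cells, opposite in direction to SEMA4G (log2 change -0.32 ± 0.12), and whether the counting used strand is not stated in the sources used here.

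SEMA4D, the ligand of PLXNB1, averaged 11.3 ± 0.666 CPM in DDX4-null cells and 7.45 ± 1.13 CPM in control cells (log2 change 0.61 ± 0.13). SEMA4A, a ligand known from immune cells, was low in all groups and fell to 0.155 ± 0.111 CPM in DDX4-null cells, against 0.739 ± 0.179 CPM in control cells (log2 change -2.15 ± 0.44). It was higher in the tumors, at 3.23 ± 1.03 CPM in DDX4-null and 2.03 ± 0.667 CPM in control libraries. SEMA4C, a ligand of PLXNB2, fell in monolayer cells (-0.51 ± 0.12) and had a tumor change of 0.43 ± 0.11 that did not pass (adjusted p = 0.0767), although its tumor groups did not overlap. SEMA4B and SEMA4F did not pass in either genotype comparison, but both were called lower in DDX4-null cells when changes were centred by chromosome. SEMA7A, a lipid-anchored ligand of PLXNC1 and of integrins, was called lower in DDX4-null cells at a log2 change of -0.28 ± 0.11 (adjusted p = 0.0318), with overlapping groups and a call that was lost without control cell library 2 or 3 or DDX4-null cell library 2 or 4.

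Among the receptors, PLXNA3, an A-type partner of neuropilins, was lower in DDX4-null cells than in any other group. It measured 11.6, 12.3, 13.4 and 11.0 CPM in DDX4-null cells and 41.6, 58.8, 51.2 and 43.8 CPM in control cells (log2 change -2.02 ± 0.13, adjusted p = 4.34e-11). DDX4-null tumors had 47.7, 47.3, 44.9 and 40.8 CPM and control tumors 35.4, 41.5, 37.2 and 31.0 CPM, which overlap. PLXNA3 and PLXNB3 both lie on chromosome X, where the median log2 change between DDX4-null and control cells was -0.47.

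PLXNB3, a B-type plexin, was also lowest in DDX4-null cells. It measured 7.79, 7.88, 8.13 and 7.80 CPM in DDX4-null cells and 16.4, 23.5, 22.3 and 14.4 CPM in control cells (log2 change -1.28 ± 0.15). Tumor levels were 53.6, 41.0, 46.1 and 41.3 CPM in DDX4-null and 35.0, 39.4, 33.6 and 37.2 CPM in control libraries, all above every cell library, with no overlap between genotypes but a change that did not pass (0.32 ± 0.11, adjusted p = 0.123). PLXNB3 shares 1432 of 7007 exonic bases with SRPK3 on the same strand, and SRPK3 stayed at or below 0.110 CPM in every group mean.

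PLXNA1, a widely used neuropilin partner, was the single member called between tumors. It measured 147, 136, 140 and 155 CPM in DDX4-null tumors and 199, 219, 203 and 219 CPM in control tumors. The groups did not overlap, and the log2 change was -0.54 ± 0.08 (adjusted p = 0.0117). Without control tumor 3 its size did not shrink (-0.56 ± 0.10), but the adjusted p was 0.0559 and the call was lost. Calls over all genes numbered 26 there, against 270 with all 8 tumors. In cells PLXNA1 was 116, 90.5, 101 and 84.1 CPM in DDX4-null and 102, 129, 122 and 99.5 CPM in control libraries, which overlap (log2 change -0.21 ± 0.12, adjusted p = 0.118). Both genotypes had more PLXNA1 RNA in tumors than in cells, by 0.58 ± 0.11 in DDX4-null and 0.90 ± 0.10 in control libraries on the log2 scale.

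Of the other plexins, PLXNA2, which binds SEMA6A, rose to 75.7 ± 10.8 CPM in DDX4-null cells, against 39.9 ± 7.58 CPM in control cells (log2 change 0.92 ± 0.13). PLXNC1, the receptor of SEMA7A, rose to 2.49 ± 0.354 CPM, against 0.471 ± 0.162 CPM in control cells (log2 change 2.36 ± 0.26). PLXNB1, the receptor of SEMA4D, fell to 26.8 ± 5.13 CPM, against 40.8 ± 6.23 CPM in control cells (log2 change -0.61 ± 0.14). PLXND1, a receptor of blood vessels, and PLXNB2, the receptor of SEMA4C, did not pass in either genotype comparison. Centred by chromosome, PLXNB2 was called lower in DDX4-null cells (-0.26, adjusted p = 0.0405). PLXNB2 was nevertheless the largest plexin part per length, at 39.4% ± 2.81 of the summed plexin level in DDX4-null tumors, 36.0% ± 0.520 in control tumors, 55.7% ± 1.61 in DDX4-null cells and 51.1% ± 1.21 in control cells.

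**Figure D3:**
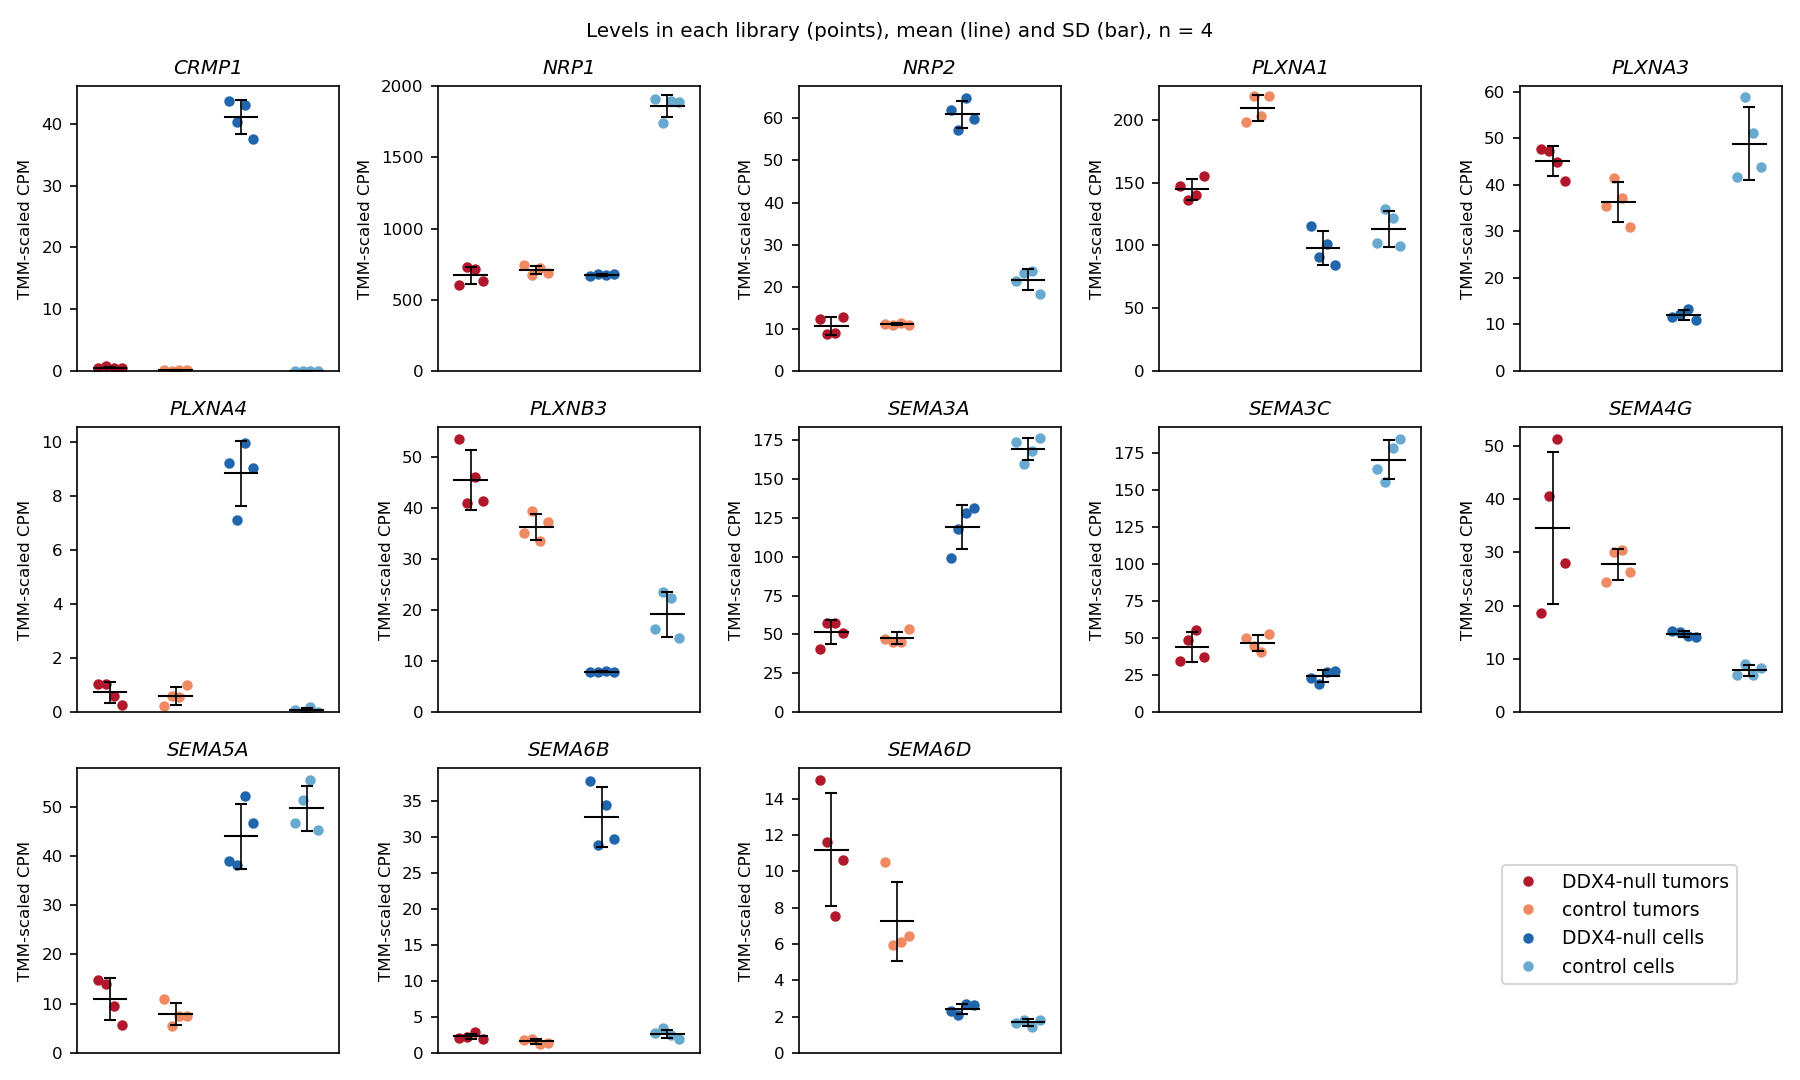
TMM-scaled CPM of the 12 members chosen by the rule for full values and of NRP1 in each of the 16 libraries, on linear axes that start at 0; points are libraries, lines are means and bars are SD (n = 4). CRMP1, PLXNA4, SEMA6B and NRP2 are highest in DDX4-null cells, SEMA3A, SEMA3C and NRP1 in control cells, and SEMA6D, SEMA4G and PLXNB3 in the tumor libraries.

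The co-receptors NRP1 and NRP2 changed in opposite directions in monolayer cells. NRP1 measured 664, 679, 675 and 678 CPM in DDX4-null cells and 1908, 1744, 1892 and 1886 CPM in control cells, a log2 change of -1.46 ± 0.10 (adjusted p = 7.41e-11). NRP1 was given in full after its values were seen, since the rule did not take it. In tumors it was 604, 729, 714 and 634 CPM in DDX4-null and 741, 676, 724 and 691 CPM in control libraries. Control cells stood alone above the others, and the other 3 groups overlapped.

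NRP2 measured 62.0, 57.2, 64.9 and 59.9 CPM in DDX4-null cells and 21.3, 23.2, 23.8 and 18.2 CPM in control cells (log2 change 1.49 ± 0.11, adjusted p = 3.56e-10). DDX4-null tumors had 12.3, 8.70, 9.02 and 12.7 CPM and control tumors 11.1, 11.0, 11.5 and 11.0 CPM, below every cell library. The ratio of NRP1 to NRP2 per length was 13.4 ± 0.772 in DDX4-null cells and 105 ± 15.3 in control cells, and 78.9 ± 22.4 in DDX4-null tumors and 76.5 ± 2.85 in control tumors (SD, n = 4). The ratio was chosen after the values were seen and is given without a test.

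**Figure D4:**
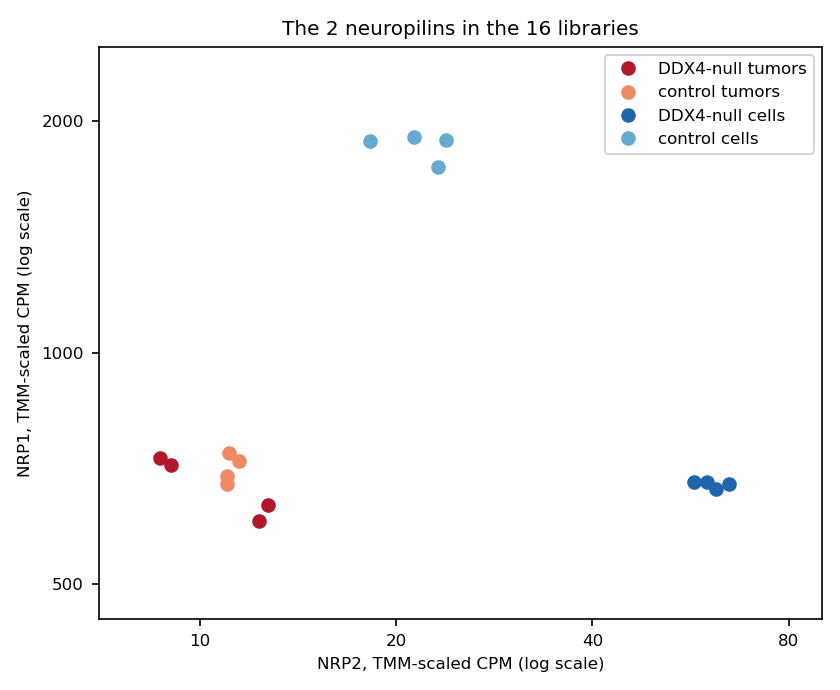
NRP1 against NRP2 in the 16 libraries, both in TMM-scaled CPM on log axes, with the groups by colour. DDX4-null cells lie at the right with NRP2 between 57.2 and 64.9 CPM, control cells at the top with NRP1 between 1744 and 1908 CPM, and the 8 tumor libraries together at the lower left.

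Of the remaining CRMP genes, DPYSL2, the best studied tubulin-binding member, averaged 158 ± 3.37 CPM in DDX4-null cells and 118 ± 5.97 CPM in control cells (log2 change 0.43 ± 0.09), and lost its call when changes were centred by chromosome (0.18, adjusted p = 0.0871). Its tumor levels were 106 ± 11.9 CPM in DDX4-null and 82.3 ± 7.39 CPM in control libraries, without overlap but not called (adjusted p = 0.0859). DPYSL3 averaged 78.2 ± 2.90 CPM in DDX4-null cells and 55.3 ± 4.44 CPM in control cells (log2 change 0.50 ± 0.10) and did not differ detectably between tumors (0.07 ± 0.10, adjusted p = 0.736). DPYSL4 showed 75.2, 43.1, 50.2 and 42.1 CPM in DDX4-null tumors and 33.0, 33.4, 32.2 and 34.6 CPM in control tumors. Its tumor groups did not overlap, and its highest value was in DDX4-null tumor 1, the library with the highest sum of fibroblast markers, whose part in the result was not tested. The change of 0.66 ± 0.17 did not pass (adjusted p = 0.0667). It was called without a filter (adjusted p = 0.0452), with the replicate block (0.0427), in the model of all 16 libraries (0.0174), with DESeq2 (0.00586) and when DDX4-null tumor 1 was dropped, which lowered the change to 0.44. In monolayer cells DPYSL4 changed by -0.10 ± 0.14 (adjusted p = 0.535).

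DPYSL5, SEMA3E, SEMA3G and SEMA5B reached 1 CPM in no group. DPYSL5 and SEMA5B, a CRMP gene and a class 5 ligand of the nervous system, had 18 and 10 counts in DDX4-null cells and 0 in control cells. Against 3 counts over the control group, DPYSL5 was at least 5.1-fold higher.

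Xenograft tumors differed from monolayer cells in about as many members as DDX4-null cells did from control cells. Of 31 members tested between control tumors and control cells, 13 rose and 12 fell, which is 80.6%, against 64.9% of all 12858 genes, of which 33.9% rose and 31.0% fell. Of 32 tested between DDX4-null tumors and DDX4-null cells, 15 rose and 11 fell, which is 81.2%, against 69.8% of all 13277 genes, of which 34.6% rose and 35.3% fell. Control cells enter the comparison of control libraries and the genotype comparison in cells, and DDX4-null cells that of DDX4-null libraries and the same genotype comparison, so these sets of changes are not independent. Host RNA counted on human genes was not tested as a part of these differences.

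Some members moved in opposite directions between settings in the 2 genotypes. The ligand SEMA6A was lower in DDX4-null tumors than in DDX4-null cells (log2 change -1.85 ± 0.24) and higher in control tumors than in control cells (2.91 ± 0.40). The receptor PLXNA3 was higher in DDX4-null tumors than in DDX4-null cells (1.92 ± 0.11) and lower in control tumors than in control cells (-0.42 ± 0.12), and the fall was not called with library totals (-0.26, adjusted p = 0.0799). SEMA3C was higher in tumors than in cells for DDX4-null libraries (0.88 ± 0.16, adjusted p = 0.000277) and lower for control libraries (-1.86 ± 0.10, adjusted p = 7.56e-11). With changes centred by chromosome its rise in DDX4-null libraries was not called (0.33, adjusted p = 0.0847).

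Others moved the same way in both genotypes. PLXNB3 was higher in tumors by 2.54 ± 0.12 in DDX4-null and 0.93 ± 0.14 in control libraries on the log2 scale, and DPYSL4 by 1.45 ± 0.18 and 0.68 ± 0.12. NRP2 fell in tumors, with log2 changes of -2.50 ± 0.14 in DDX4-null and -0.95 ± 0.11 in control libraries. NRP1 was not among these. It changed by 0.01 ± 0.10 between DDX4-null tumors and cells (adjusted p = 0.947) and by -1.39 ± 0.09 between control tumors and cells (adjusted p = 4.19e-10).

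The change between genotypes differed between tumors and cells for many members. In one model of all 16 libraries, 33 members were tested for the difference of the DDX4-null effects, tumors minus cells, and 10 had a more positive and 9 a more negative effect in tumors. That is 57.6%, against 52.8% of all 13603 genes, with 26.0% more positive and 26.8% more negative. SEMA4A (2.82 ± 0.55), SEMA3C (2.73 ± 0.20) and PLXNA3 (2.34 ± 0.16) had the most positive differences on the log2 scale, and PLXNA4 (-6.73 ± 0.73), SEMA6A (-4.76 ± 0.44) and SEMA6B (-3.08 ± 0.27) the most negative ones apart from CRMP1, whose fitted value of -10.25 is set by the prior count of the fit and is no measured size. NRP1 (1.39 ± 0.12) and NRP2 (-1.56 ± 0.17) again had opposite signs. DDX4-null cells and DDX4-null tumors may differ in cell population as well as in setting: the median change of chromosome 7 was -0.73 between the cell groups and 0.01 between the tumor groups, and both sources cannot be told apart.

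Seen over all 16 libraries, the monolayer groups stood apart more often than the tumor groups. Among 31 members that reached 1 CPM in a group, the 4 DDX4-null cell libraries lay outside the range of the other 12 for 12 members, or 38.7%, against 33.6% of 13249 genes. They were above for CRMP1, DPYSL2, NRP2, PLXNA2, PLXNA4, SEMA6A and SEMA6B and below for PLXNA3, PLXNB3, SEMA3C, SEMA3F and SEMA4A. Control cells stood apart for 11 members, or 35.5%, against 19.8% of genes. They lay above for NRP1, SEMA3A and SEMA3C and below for CRMP1, DPYSL3, PLXNA4, PLXNC1, SEMA4D, SEMA4G, SEMA6A and SEMA6D. DDX4-null tumors stood apart for 2 members, with DPYSL4 and PLXNB3 above, where the share of genes was 3.77%. Control tumors did so for 3, with PLXNA1 and SEMA3F above and DPYSL2 below, where the share was 3.05%.

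Per kilobase of exon, NRP1 had the highest level of all members in each group, at 58.2 ± 5.28 RPKM in DDX4-null tumors, 61.4 ± 2.59 RPKM in control tumors, 58.5 ± 0.606 RPKM in DDX4-null cells and 161 ± 6.62 RPKM in control cells. SEMA4B, a class 4 ligand, came next in each group, at 27.1 ± 7.12 RPKM in DDX4-null tumors, 24.3 ± 1.40 RPKM in control tumors, 36.4 ± 3.31 RPKM in DDX4-null cells and 38.3 ± 1.65 RPKM in control cells. In control tumors, the SD ranges of PLXNB2 (20.3 ± 0.790 RPKM) and PLXNA1 (19.2 ± 0.953 RPKM) overlapped. So did those of SEMA3C (27.3 ± 2.09 RPKM) and PLXNB2 (26.6 ± 2.95 RPKM) in control cells. Such pairs come from the same libraries and their order was not tested. Within libraries, PLXNB2 exceeded PLXNA1 in every control tumor. Its share of the summed plexin level was 35.5, 35.8, 36.7 and 36.2%, against 33.5, 33.8, 33.4 and 35.5% for PLXNA1. In DDX4-null cells SEMA3C stood at 3.87 ± 0.655 RPKM.

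A list of 41 co-receptors and effectors of the same pathway, chosen by known function, was measured alongside. Between DDX4-null and control cells 9 rose and 18 fell of 39 tested, which is 69.2%, against 67.3% of all genes, of which 35.0% rose and 32.3% fell. The median log2 change of the list was -0.15. The kinase PAK1, an effector of RAC1, rose to 72.7 ± 2.51 CPM in DDX4-null cells, against 22.8 ± 2.08 CPM in control cells (log2 change 1.67 ± 0.10). TIAM1 and FARP1, exchange factors that act on Rac-type G proteins, rose by 1.28 ± 0.11 and 1.05 ± 0.11 on the log2 scale. RAC1 itself, the G protein that activates PAK1, fell to 159.6 ± 12.7 CPM in DDX4-null cells, against 320 ± 28.0 CPM in control cells (log2 change -1.003 ± 0.099, adjusted p = 3.46e-08). It lies on chromosome 7 and was named after its values were seen, since the rule took other genes. ITGA1, an integrin subunit, changed by -1.76 ± 0.12, ARHGAP35, a GTPase-activating protein of RHOA, by -1.23 ± 0.12, and MICAL2, an actin-oxidising enzyme of the MICAL family, by -1.22 ± 0.09.

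In tumors 0 of 40 genes of that list were called with edgeR, 7 had an unadjusted p under 0.05, and DESeq2 called 1, MICAL1. Over all genes edgeR called 2.09%, and DESeq2 880 of 12918 genes. The share of all genes at the unadjusted cut was not counted. Between control tumors and control cells 9 rose and 16 fell of 39 tested, which is 64.1%, against 64.9% of all genes, of which 33.9% rose and 31.0% fell. L1CAM, an adhesion molecule that joins NRP1 in the SEMA3A receptor, averaged 0.756 ± 0.402 CPM in DDX4-null tumors and 0.597 ± 0.244 CPM in control tumors, against 24.0 ± 1.66 CPM in DDX4-null cells and 12.3 ± 1.45 CPM in control cells.

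The genes whose pattern over the 16 libraries was most like that of CRMP1, by Pearson correlation of log2(CPM + 0.5) among 11330 genes of at least 5 CPM in a group, were CSMD2 (0.998), ZNF536 (0.996), PDE9A (0.996) and ZIC2 (0.996). The libraries share their groups and the values describe group means more than single libraries. CRMP1 shares 159 of 5823 exonic bases with EVC on the opposite strand. EVC averaged 31.3 ± 4.13 CPM in DDX4-null cells and 28.4 ± 4.52 CPM in control cells (log2 change 0.14 ± 0.13, adjusted p = 0.354), and its part in the CRMP1 counts was not tested.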

How the data were processed

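The authors deposited one table of raw counts, with 20356 Ensembl genes and 16 libraries, which was used unchanged. The labels' protocols state DNase treatment of the RNA and the TruSeq Stranded mRNA kit. The submitters' processing notes name GRCh37, Trimmomatic 0.39, STAR 2.7.10a and featureCounts 2.0.3. How strand, annotation and host reads were handled is not given in the sources used here, so reads of overlapping genes and host reads may be counted on a member.

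Tests used edgeR 4.0.16 (R 4.3.3) on the counts with TMM scaling, filterByExpr, the quasi-likelihood F test and Benjamini-Hochberg adjustment over all genes tested, with 0.05 as the threshold. Each comparison was fitted on its own 8 libraries, and the difference of effects on all 16. DESeq2 1.42.0 was an alternative. Log2 changes are DDX4-null minus control, or tumors minus cells, with SE. Levels are CPM scaled by TMM factors, and RPKM divide these by union exon length taken by Ensembl ID from GENCODE v29, a GRCh38 annotation, which makes lengths approximate. A floor of 3 counts per library was 0.111 to 0.26 CPM. Intervals are exact 95% and reflect counting error alone, because reads without molecular identifiers are not independent molecules.

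The members, the lists and the rule for full values (up to 5 called members per comparison with the largest change and at least 5 CPM) were chosen with earlier results of these data known. Same-numbered libraries did not deviate together throughout (correlations from -0.24 to 0.414), so replicate numbers were not taken as pairs. Some did: the value of 0.414 belonged to replicate 3 of DDX4-null cells, whose best match among control cells was replicate 3. Matches were sought in this direction only, from the first group of a comparison to the second. DDX4-null tumor 1 matched control tumor 1 best, at 0.205. Control tumors 1 and 2 matched control cell libraries 1 and 2 best, at 0.058 and 0.133. Replicates 1, 2 and 3 of DDX4-null tumors also matched their own number best in DDX4-null cells, at 0.06, 0.099 and 0.173. No 2 replicates agreed within sampling noise. The steps were tested on simulated counts. Alternatives were DESeq2, other scalings, other filters, 1 model of all libraries, the replicate number as a block, centring by chromosome and leaving out each library.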

Additional observations from a re-analysis of the deposited data

Results flagged for a closer look

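In 3 of 113 groups of 4 libraries, 1 library stood apart from the other 3 by Dixon's criterion, and chance gives about 1 in 20 groups. These were control cell library 2 for NRP1, with 1740 CPM, control tumor 3 for NRP2, with 11.5 CPM, and control tumor 1 for SEMA6D, with 10.5 CPM.

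For 19 members the DDX4-null effect differed between tumors and cells by the interaction test of edgeR at an adjusted p under 0.05. The differences, tumors minus cells on the log2 scale, were positive for the ligands SEMA3A (0.62), SEMA3C (2.73), SEMA3D (1.14), SEMA4A (2.82) and SEMA4C (0.93), for the plexins PLXNA3 (2.34), PLXNB1 (0.87) and PLXNB3 (1.6), for NRP1 (1.39) and for DPYSL4 (0.76). They were negative for the ligands SEMA4D (-0.64), SEMA6A (-4.76) and SEMA6B (-3.08), for the plexins PLXNA2 (-0.9), PLXNA4 (-6.73) and PLXNC1 (-2), for NRP2 (-1.56), for DPYSL3 (-0.43) and for CRMP1 (-10.25). Centring changes by chromosome ended the call of the difference for SEMA3D (0.42, adjusted p = 0.343), DPYSL3 (-0.28, adjusted p = 0.0975) and SEMA4D (-0.46, adjusted p = 0.06), and turned that of SEMA3A to -0.10 (adjusted p = 0.625). It also added calls of the difference for PLXNA1 (-0.388, adjusted p = 0.0374), PLXNB2 (0.376, adjusted p = 0.0467), SEMA4B (0.475, adjusted p = 0.0443) and SEMA5A (0.816, adjusted p = 0.0313). The CRMP1 value is set by the prior count of the fit, because control cells had 0 counts.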

How the results depend on the processing

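Between DDX4-null and control tumors the count of called members depended on the setting: 1 was called as reported, 5 with DESeq2, 2 with library totals, 3 without a filter, 2 with the replicate block and 5 in the model of all 16 libraries. Leaving out 1 library gave 0 to 2 calls, and these extremes came from dropping control tumor 3 (0 calls) and DDX4-null tumor 1 (2 calls). Over all genes the calls moved too: 270 as reported, 880 with DESeq2, 265 with library totals, 331 without a filter, 425 with the replicate block, 808 in the model of all 16 libraries, and, on dropping 1 library, 26 (control tumor 3) and 289 (DDX4-null tumor 1).

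In the other comparisons every alternative kept the count within 1.5 times. Leaving out 1 library gave 21 to 26 calls for DDX4-null against control cells, 24 to 28 for control tumors against control cells, 24 to 25 for DDX4-null tumors against DDX4-null cells and 19 to 21 for the difference of effects. Calls over all genes were 8336 of 13142 without control cell library 3 (21 members) and 8594 of 13086 without DDX4-null cell library 1 (26). Between control tumors and cells they were 8280 of 13007 without control cell library 4 (24) and 8068 of 12950 without control tumor 1 (28). Between DDX4-null tumors and cells, 9008 of 13452 were called without DDX4-null cell library 1 (24) and 8892 of 13456 without DDX4-null cell library 4 (25). For the difference of effects, 6893 of 13740 were called without control cell library 3 (19) and 6849 of 13777 without control cell library 1 (21). The replicate block gave 24, 25, 26 and 20 calls in the same order. Over all genes it called 8883 of 13006, 8332 of 12858, 9368 of 13277 and 7330 of 13603.

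Centring by chromosome turned the direction of SEMA3A in cells (0.218, adjusted p = 0.0633), of SEMA3A in the difference of effects (-0.096, adjusted p = 0.625) and of PLXNB2 in cells (-0.26, adjusted p = 0.0405). It left 10 members higher and 13 lower in DDX4-null cells, against 12 and 11. Of all 13006 genes tested there, 8141 were called when centred, against 8756 as reported. Besides PLXNB2, it added calls of lower levels for SEMA4B (-0.338, adjusted p = 0.00425), SEMA4F (-0.325, adjusted p = 0.0195) and SEMA5A (-0.367, adjusted p = 0.00902). Of the 23 members called between DDX4-null and control cells, 18 kept call and direction under every alternative run. The exceptions were SEMA3A, DPYSL2, SEMA3D, SEMA6D and SEMA7A. Depth limits CRMP1 and PLXNA4 in DDX4-null tumors, with 36 and 45 counts over the group.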
